A study of Homo sapiens with 8 samples.

Results

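The 48 proteasome genes described here are the protein-coding rows of the count table whose symbols are PSMA, PSMB, PSMC, PSMD, PSME, PSMF or PSMG followed by a number. They are 48 of 60564 genes in the table, and they were chosen by name and not by any measured value. RNA sequencing was done on AB8/13, a conditionally immortalised line of human podocytes, the epithelial cells that wrap the glomerular capillaries of the kidney. For the control group, 4 libraries, cells received non-targeting shRNA by lipid transfection, and for the ATOH8 knockdown group, also 4 libraries, shRNA against ATOH8 in the same way. The ATOH8 protein is a transcription factor of the basic helix-loop-helix class. Cells of both groups had spent 5 days under differentiating conditions, and all came from this 1 line, with the number of shRNA sequences and of separate transfections not given in the sources used here.

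The proteasome is the protease that degrades proteins tagged with ubiquitin. Its core, the 20S particle, is a barrel of alpha rings and beta rings with catalytic beta subunits inside. The 19S cap recognises ubiquitin, unfolds the substrate with a ring of ATPases and feeds it into the core. Interferon-gamma induces the alternative catalytic subunits PSMB8, PSMB9 and PSMB10, which replace PSMB5, PSMB6 and PSMB7 in newly built cores to form the immunoproteasome, and it induces PSME1 and PSME2, the alpha and beta subunits of the PA28 activator. These cores supply many of the peptides that MHC class I molecules present. The comparison of these 5 interferon-inducible genes with the other 43 runs through the results.

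Promoter windows of 4 of the inducible genes are shown because 3 of these windows hold letters of an interferon response element, while the window of PSMB9, the gene that fell most, does not. Sequences are RefSeq windows on GRCh38.p14, from 250 bases before to 50 bases after the annotated gene start, and 42 of the 48 genes had one. Each is written 5′ to 3′ on the gene's own strand, and capitals mark every match, on either strand, to any of 5 motifs. The motifs were the core of the interferon-stimulated response element (ISRE, the letters GAAA, then 2 of any base, then GAAA), the gamma-activated site (GAS, TTCNNNGAA), an NF-kB site (GGG, then 2 of any base, then TTTCC), the core of the antioxidant response element (ARE, TGACNNNGC), which NRF1 (gene NFE2L1) and NRF2 (gene NFE2L2) bind, and the CCAAT box (CCAAT). The matches of different motifs did not overlap in the windows printed here. TAP1, a peptide transporter gene that is no proteasome gene, is shown because it lies head to head with PSMB9, with 488 bases between the annotated starts, so that the first bases of both windows are the same DNA on opposite strands.
PSMB9, chr6:32853942-32854241, plus strand: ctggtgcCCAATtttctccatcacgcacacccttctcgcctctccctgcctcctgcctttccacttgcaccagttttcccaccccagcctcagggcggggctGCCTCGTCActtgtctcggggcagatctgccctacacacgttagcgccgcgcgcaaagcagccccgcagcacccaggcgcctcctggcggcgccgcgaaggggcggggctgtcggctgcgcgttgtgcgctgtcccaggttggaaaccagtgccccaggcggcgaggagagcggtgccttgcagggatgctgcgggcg
TAP1, chr6:32853655-32853954, minus strand: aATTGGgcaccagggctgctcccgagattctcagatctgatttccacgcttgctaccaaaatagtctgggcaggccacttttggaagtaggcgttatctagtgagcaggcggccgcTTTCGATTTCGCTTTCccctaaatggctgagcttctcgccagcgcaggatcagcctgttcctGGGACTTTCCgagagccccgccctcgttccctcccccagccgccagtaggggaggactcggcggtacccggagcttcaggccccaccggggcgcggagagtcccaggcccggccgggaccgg
PSMB10, chr16:67936801-67937100, minus strand: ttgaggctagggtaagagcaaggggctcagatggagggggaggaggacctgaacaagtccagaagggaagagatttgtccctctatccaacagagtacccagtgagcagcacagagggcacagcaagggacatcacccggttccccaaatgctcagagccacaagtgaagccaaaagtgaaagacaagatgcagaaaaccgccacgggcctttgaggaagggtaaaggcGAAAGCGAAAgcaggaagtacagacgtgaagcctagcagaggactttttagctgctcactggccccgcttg
PSME1, chr14:24135944-24136243, plus strand: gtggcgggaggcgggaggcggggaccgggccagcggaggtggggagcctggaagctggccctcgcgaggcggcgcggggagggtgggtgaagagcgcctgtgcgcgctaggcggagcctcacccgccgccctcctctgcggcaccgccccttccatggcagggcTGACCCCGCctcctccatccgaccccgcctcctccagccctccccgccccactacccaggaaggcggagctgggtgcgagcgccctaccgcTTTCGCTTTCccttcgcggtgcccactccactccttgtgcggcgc
PSME2, chr14:24146561-24146860, minus strand: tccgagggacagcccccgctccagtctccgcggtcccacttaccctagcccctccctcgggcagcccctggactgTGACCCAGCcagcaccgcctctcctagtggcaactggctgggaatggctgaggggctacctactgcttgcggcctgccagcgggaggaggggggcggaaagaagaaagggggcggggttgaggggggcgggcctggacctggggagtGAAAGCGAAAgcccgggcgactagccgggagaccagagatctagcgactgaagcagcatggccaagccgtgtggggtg
The ISRE core was found in the windows of PSMB10, PSME1 and PSME2, that is in 3 of the 5 inducible genes, in 3 of 37 other proteasome genes and in 3.57% of 35116 promoters in the table. In PSMB10 and PSME2 it read GAAAGCGAAA, and in PSME1 the same letters stood on the opposite strand as TTTCGCTTTC. The PSMB9 window held no ISRE core, and the TAP1 window held 2 overlapping ones and an NF-kB match. Those TAP1 matches lie between both annotated starts, so they are also upstream of PSMB9, beyond the 250 bases taken for its window. The ARE core was found in 13 of 42 proteasome windows against 13.3% of all promoters, and 3 of the 13 belonged to PSMB9, PSME1 and PSME2. CCAAT was found in 19 of the 42 against 34.6% of all promoters, the GAS letters in 5 against 7.66% and the NF-kB letters in 1 against 1.91%, and of the inducible genes only PSMB9 held any of these 3, the CCAAT box. The window of PSMB8 matched none of the 5 motifs and is not shown. These are letter matches in a fixed window, and no binding was measured.

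Library totals lay between 21108695 and 27109043 counts, and levels are given as CPM, counts per 1000000 counts of the library after scaling between libraries. ATOH8 had counts of 175, 160, 122 and 128 in the control libraries and 51, 71, 61 and 53 in those of the knockdown, and its level was lower in each knockdown library than in any control (log2 -1.26, SE 0.127, edgeR adjusted p = 1.78e-09). Of the podocyte markers, NPHS1 (nephrin) had at most 6 counts in any library, while WT1 had 108 to 167. In GENCODE release 29, 23 of the 48 proteasome genes share exon bases with another gene, 19 of them with a gene on the opposite strand. The library kit keeps the strand, and the use of strand in the counting was not given in the sources used here. PSMC1 has processed pseudogenes with many reads, among them PSMC1P1 with 35.4 CPM against 58.6 CPM for PSMC1 itself in control libraries, so its values are uncertain.

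Most proteasome genes fell by a small amount in ATOH8 knockdown, and the interferon-inducible catalytic subunits fell most as a class. Of 48 genes, 46 had enough counts to test. Of these 34 fell and 2 rose, and the other 10 did not pass the test, 3 of them with an unadjusted p below 0.05. Among all 16884 genes tested, 25.9% were lower, 25.2% higher and 51.1% changed either way by the same test, edgeR's quasi-likelihood test at a Benjamini-Hochberg adjusted p of 0.05. The median log2 change of the 46 genes was -0.19, beside 0.00 (-0.00072) over all genes tested, and the range ran from -0.91 (PSMB9) to 0.17 (PSMD2). In all 36 genes that passed, the control and knockdown libraries did not overlap, and in all 10 that did not pass they overlapped; among all genes tested the groups were apart in 45.6% (23.2% lower and 22.4% higher). PSMA8, the testis-specific alpha subunit, and PSMB11, the catalytic subunit of the thymus, had at most 2 counts in any library and were not tested. Libraries of a group are called biological replicates in the design text without more detail, and the spread that the p-values rest on may be partly technical. In bulk RNA, less of a transcript per cell and fewer cells that express it cannot be told apart.

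**Figure D1:**
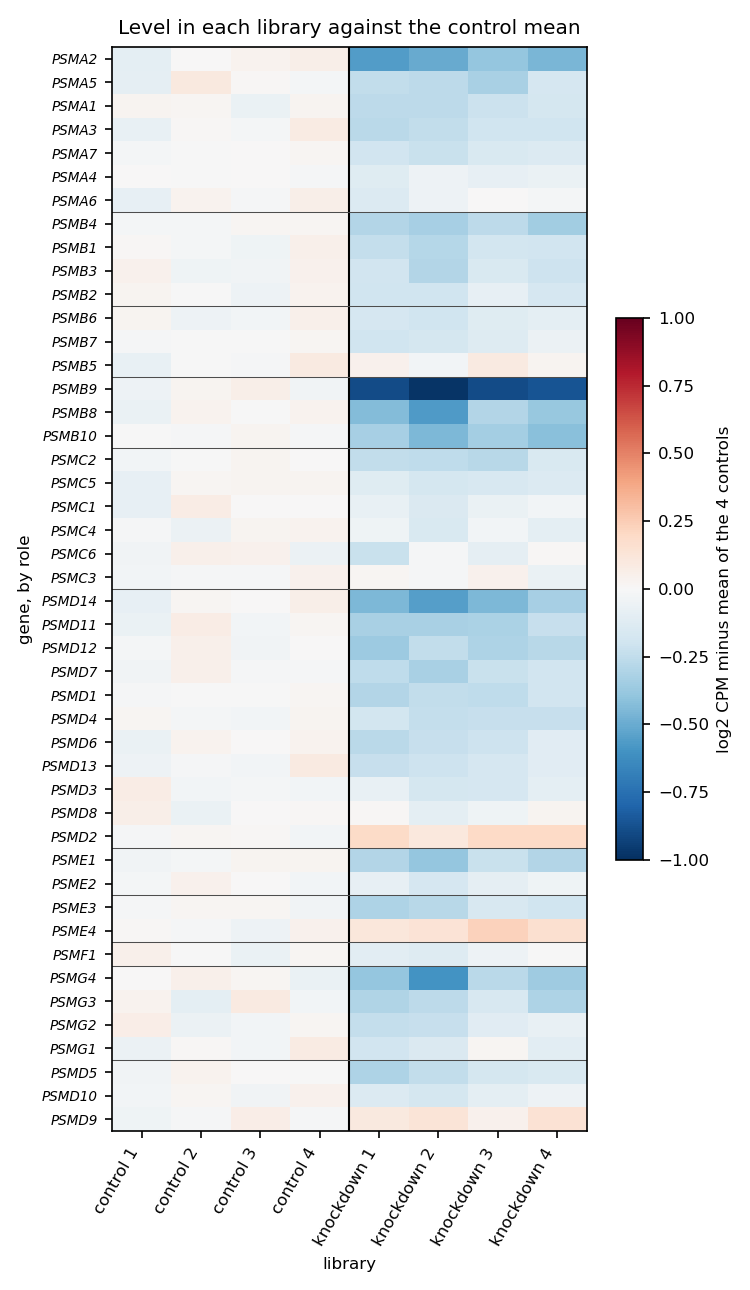
Level of each of the 46 tested proteasome genes in each library, as log2 CPM minus the mean of the 4 control libraries, with genes in rows ordered by role and libraries in columns. Blue cells are below the control mean and red cells above it; the knockdown columns are blue in most rows, darkest for PSMB9, and red for PSMD2 and PSME4.

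The 3 interferon-inducible catalytic subunits had the largest median fall of any role class with at least 3 tested genes, -0.41 on the log2 scale. PSMB9 (ENSG00000240065.8, chromosome 6), which takes the caspase-like position in the immunoproteasome, had 39.6, 41.7, 42.8 and 40.1 CPM in the control libraries and 22.0, 20.7, 22.0 and 22.6 CPM in the knockdown libraries. Its knockdown values lay close together and all far below the lowest control, and knockdown left 53.3% of the control level (log2 -0.91, SE 0.048, edgeR adjusted p = 1.79e-15). Only 1.74% of all genes tested had a lower log2 change. PSMB8 (ENSG00000204264.11, chromosome 6), the inducible chymotrypsin-like subunit, had 81.6, 87.5, 84.9 and 87.5 CPM in the control libraries and 63.3, 57.8, 69.7 and 65.8 CPM in the knockdown libraries. The knockdown libraries spread more widely than the controls, and replicate 2 was the lowest (log2 -0.41, SE 0.045, edgeR adjusted p = 4.05e-08). PSMB10 (ENSG00000205220.12, chromosome 16), the inducible trypsin-like subunit, was the least abundant of the 3 by CPM, with 25.7, 25.5, 26.2 and 25.6 CPM in the control libraries and 20.4, 18.8, 20.3 and 19.3 CPM in the knockdown libraries. Its groups were again apart (log2 -0.39, SE 0.051, edgeR adjusted p = 2.47e-07), and 34.8% of its exon bases are shared with AC040162.1 on the same strand. PSMB8 and PSMB9 overlap on opposite strands over 139 bases of exon, and the antisense gene PSMB8-AS1, which shares 618 exon bases with PSMB8, also fell (log2 -0.68, SE 0.143, edgeR adjusted p = 0.000197), so without the strand setting their reads cannot be fully told apart.

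Both PA28 genes fell, and the difference between them was not tested. PSME1 (ENSG00000092010.15, chromosome 14), the alpha subunit, had 106, 107, 111 and 111 CPM in the control libraries and 88.8, 83.4, 93.1 and 88.6 CPM in the knockdown libraries, a fall in which no library crossed between groups (log2 -0.30, SE 0.036, edgeR adjusted p = 5.28e-08). PSME2 (ENSG00000100911.16, chromosome 14), the beta subunit of the same ring, had 87.7, 91.7, 89.0 and 86.9 CPM in the control libraries and 83.8, 78.9, 83.4 and 86.1 CPM in the knockdown libraries. Its highest knockdown library was just below its lowest control library (log2 -0.10, SE 0.036, edgeR adjusted p = 0.0233), and this call was lost without knockdown replicate 2 (edgeR adjusted p = 0.117) and without control replicate 2 (0.0908). Of the 5 inducible genes, all 5 therefore fell, as did 29 of the 41 other proteasome genes tested (70.7%) and 25.9% of all genes tested. The median log2 change was -0.39 for the 5 inducible genes, beside -0.18 for the 41 others.

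**Figure D2:**
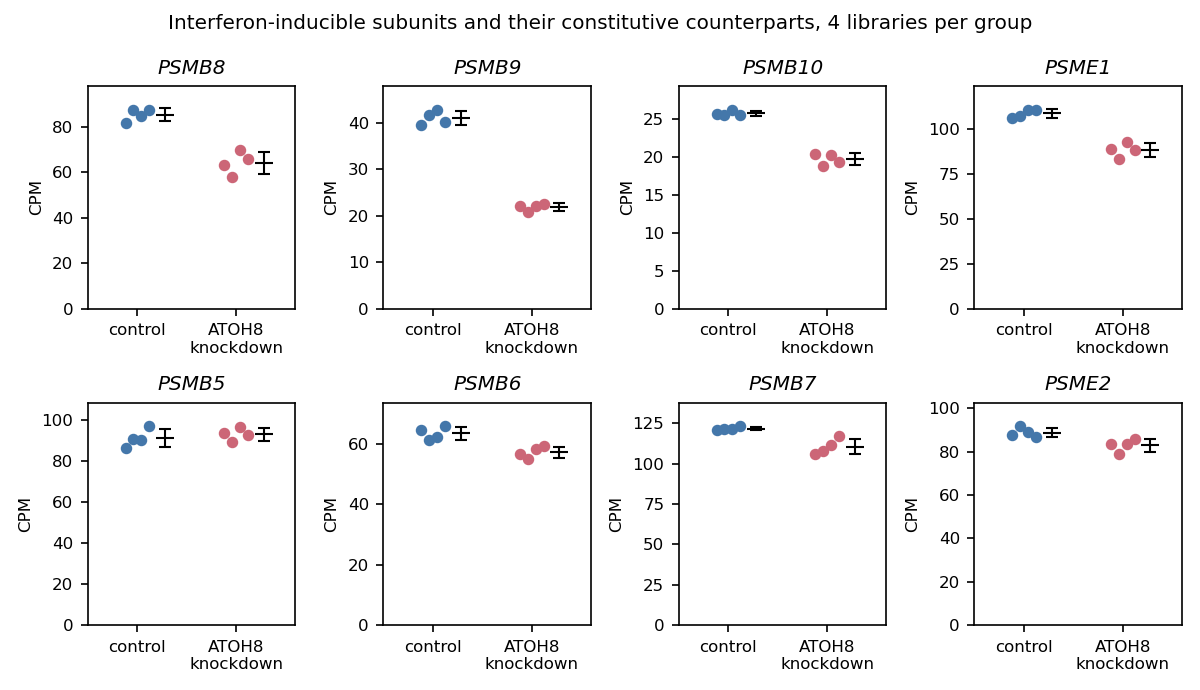
CPM in each library for the 5 interferon-inducible genes and for PSMB5, PSMB6 and PSMB7, with control in blue, ATOH8 knockdown in red, and black marks for the mean and SD of 4 libraries. Axes start at 0; the groups are farthest apart for PSMB9 and overlap for PSMB5.

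Among the constitutive partners of the inducible catalytic subunits, PSMB6 and PSMB7 fell by a small amount and PSMB5 did not pass the test. PSMB5, the standard chymotrypsin-like subunit, had 86.4, 90.9, 90.5 and 97.1 CPM in the control libraries and 94.1, 89.3, 97.0 and 92.8 CPM in the knockdown libraries. The groups overlapped and the test was not passed (log2 0.03, SE 0.038, edgeR adjusted p = 0.51). PSMB6, the standard caspase-like subunit, had 64.7, 61.1, 62.3 and 65.8 CPM in the control libraries and 56.5, 55.1, 58.4 and 59.2 CPM in the knockdown libraries, a small fall (log2 -0.15, SE 0.039, edgeR adjusted p = 0.00209). PSMB7, the standard trypsin-like subunit, had 121, 121, 121 and 123 CPM in the control libraries and 106, 108, 111 and 117 CPM in the knockdown libraries, with the controls nearly equal and the knockdown libraries more spread (log2 -0.14, SE 0.034, edgeR adjusted p = 0.00123).

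The ratio of each inducible subunit to the one it replaces was taken within each library, which needs no scaling between libraries. The count ratio of PSMB9 to PSMB6 was 0.612, 0.683, 0.687 and 0.609 in control and, in knockdown libraries, 0.390, 0.376, 0.378 and 0.382. Knockdown left 59.0% of the control ratio, a log2 change of -0.76 (SE 0.049). The ratio of PSMB8 to PSMB5 was 0.944, 0.962, 0.938 and 0.901 in control and, in knockdown libraries, 0.673, 0.647, 0.718 and 0.709, a log2 change of -0.45 (SE 0.040). The ratio of PSMB10 to PSMB7 was 0.212, 0.210, 0.216 and 0.208 in control and, in knockdown libraries, 0.192, 0.175, 0.182 and 0.165, a log2 change of -0.25 (SE 0.048). All 4 knockdown libraries were below all 4 controls for each of the 3 ratios. A two-sided exact permutation test of each ratio gave p = 0.0286, which is as low as 4 libraries against 4 can reach, and 0.0286 after Benjamini-Hochberg adjustment over the 3 ratios. Per kilobase of messenger RNA the control ratios were 0.705 for PSMB9 to PSMB6, 1.08 for PSMB8 to PSMB5 and 0.170 for PSMB10 to PSMB7, taken with the length of the principal messenger RNA. Over the length of all annotated exons PSMB8 was at 28.5 and PSMB5 at 51.7 CPM per kilobase in control, so which of these 2 was higher depends on the length used. In knockdown cells the ratios per kilobase of messenger RNA were 0.415, 0.790 and 0.143.

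**Figure D3:**
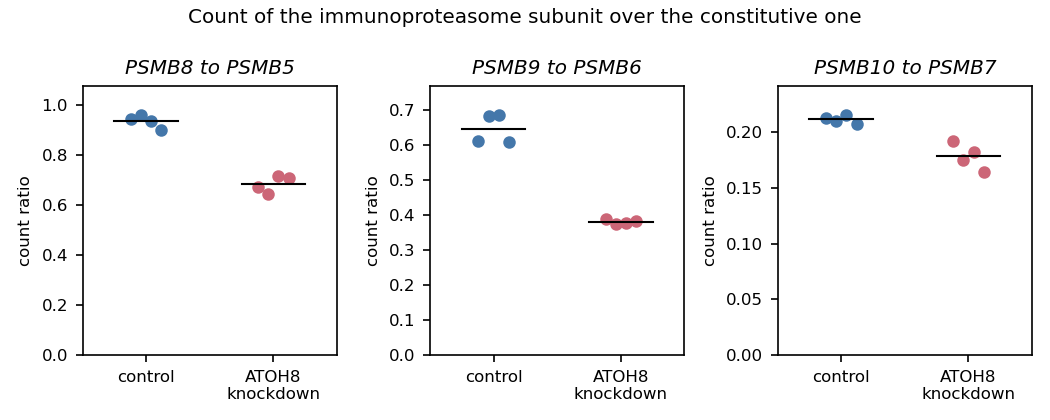
Count of each inducible catalytic subunit divided by the count of the constitutive subunit it replaces, 1 point per library, with control in blue and ATOH8 knockdown in red and a line at the geometric mean of 4 libraries. Axes start at 0; all knockdown points lie below all control points in each panel.

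The inducible genes were also tested relative to the rest of the family, by scaling every library to the geometric mean of the 41 other tested proteasome genes, an analysis added after the first results were seen. On that scale 4 of the 5 inducible genes were lower, and of the 41 others 7 were lower and 9 higher. Of all genes tested 11.0% were lower, 45.7% higher and 56.7% called in all, the median of all genes having moved to 0.16. PSMB9 had a relative log2 change of -0.75 (SE 0.049, edgeR adjusted p = 3.06e-12), PSMB8 had a relative log2 change of -0.25 (edgeR adjusted p = 1.98e-05), PSMB10 of -0.22 (0.00101) and PSME1 of -0.13 (0.00331). Among the 41 others, PSMA2 (-0.31) and PSMD14 (-0.28) had relative log2 changes below those of PSMB8, PSMB10 and PSME1. PSME2 had a relative log2 change of 0.07 (SE 0.038, edgeR adjusted p = 0.144), so its fall was not shown to be deeper than that of the rest. In each library, the mean log2 CPM of the 5 genes minus that of the 41 others was -0.62, -0.59, -0.58 and -0.63 in control and -0.82, -0.92, -0.84 and -0.88 in knockdown. The knockdown libraries were lower in all 4 cases.

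The constitutive 20S core fell almost throughout. Of 14 tested constitutive subunits, 12 fell (85.7%, against 25.9% of all genes tested) and 2, PSMA6 and PSMB5, did not pass the test. The summed level of the 14 went from 1629 ± 28.7 to 1430.5 ± 34.1 CPM (SD, n = 4), or 87.8% of control. Of the 7 tested subunits of the alpha ring, which gates the entrance, 6 fell, with a median log2 change of -0.23. PSMA2 fell most, with 112, 120.0, 122 and 125 CPM in the control libraries and 81.4, 84.5, 91.7 and 87.2 CPM in the knockdown libraries (log2 -0.47, SE 0.039, edgeR adjusted p = 5.01e-11). Its fall on the log2 scale was second to that of PSMB9 among all 46 genes. Of the exon bases of PSMA2, 14.6% are shared with AC010132.3 on the same strand and 19.5% with a processed pseudogene on the opposite strand. At the other end of the range within the ring, PSMA6 had 150.1, 163, 158 and 166 CPM in the control libraries and 145, 154, 159.7 and 157 CPM in the knockdown libraries, with overlapping groups (log2 -0.05, SE 0.036, edgeR adjusted p = 0.26). PSMA5 (-0.25), PSMA1 (-0.23), PSMA3 (-0.23) and PSMA7 (-0.18) lay between, and PSMA4 (-0.08, edgeR adjusted p = 0.0422) was close to the threshold and lost its call in 10 of 13 alternative analyses. All 4 non-catalytic beta subunits fell, PSMB4 most, from 177 ± 2.73 to 143 ± 3.63 CPM, with 174, 175, 179.5 and 179 CPM in the control libraries and 144, 141, 147 and 139 CPM in the knockdown libraries (log2 -0.31, SE 0.032, edgeR adjusted p = 2.37e-09). PSMB1 (-0.23) and PSMB3 (-0.21) followed. PSMB2, with 141, 137, 133 and 141 CPM in the control libraries and 120.2, 120.3, 130.1 and 123 CPM in the knockdown libraries, fell least of the 4 (log2 -0.16, SE 0.034, edgeR adjusted p = 0.000215).

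**Figure D4:**
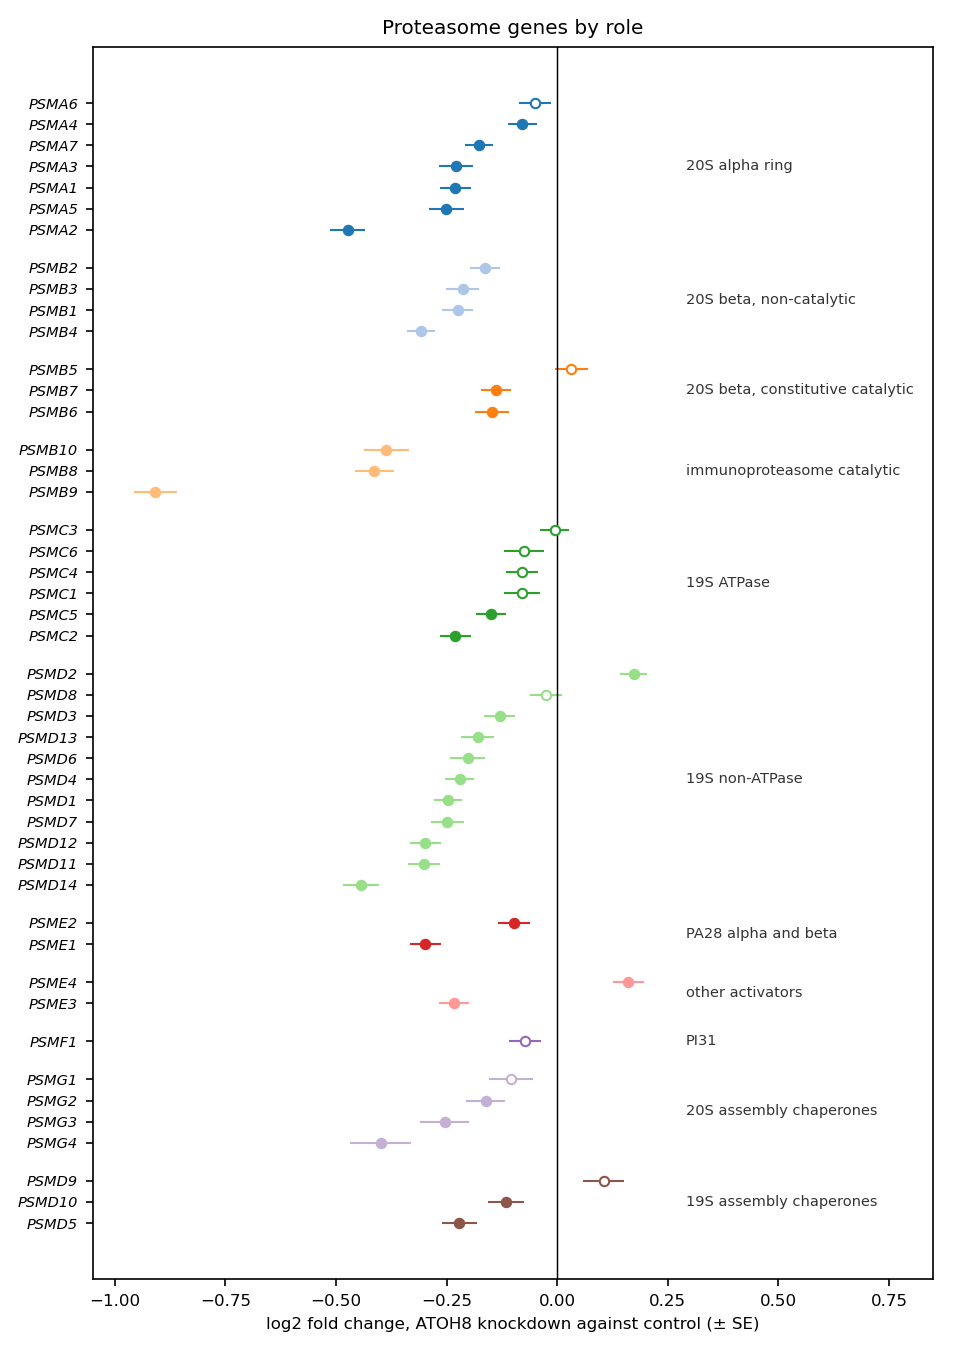
Log2 fold change of the 46 tested proteasome genes, ATOH8 knockdown against control, grouped by role, with bars for ± 1 SE. Filled points passed the test at an adjusted p of 0.05 and open points did not; PSMD2 and PSME4 are the filled points right of 0, and PSMB9 lies far left of all others.

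In the 19S cap most non-ATPase subunits fell and most ATPases did not pass the test, and the difference between these classes was not tested. Of 6 ATPases, which unfold substrates, 2 fell (33.3%, against 25.9% of all genes tested) and 4 did not pass the test. PSMC2 had 110.1, 112, 114 and 112 CPM in the control libraries and 94.7, 93.9, 92.4 and 101 CPM in the knockdown libraries (log2 -0.23, SE 0.035, edgeR adjusted p = 2.12e-06), and PSMC5 also fell (log2 -0.15). PSMC3 had 127, 128, 128 and 133 CPM in the control libraries and 130.3, 127, 132 and 123 CPM in the knockdown libraries, nearly the same range in both groups (log2 -0.01, SE 0.033, edgeR adjusted p = 0.903). PSMC1 (-0.08), PSMC4 (-0.08) and PSMC6 (-0.08) had small negative log2 changes that did not pass. Of 11 non-ATPase subunits, 9 fell (81.8%) and 1 rose (the median log2 change was -0.22). The deepest fall was that of PSMD14, the deubiquitinase that cuts ubiquitin from the substrate, with 98.5, 106, 104 and 109 CPM in the control libraries and 76.3, 71.0, 76.5 and 82.6 CPM in the knockdown libraries (log2 -0.44, SE 0.041, edgeR adjusted p = 4.97e-10). All 4 knockdown libraries were well below the lowest control. PSMD11 (-0.30) and PSMD12 (-0.30), lid subunits, PSMD7 (-0.25), the partner of PSMD14, and PSMD1 (-0.25), a large base subunit, fell. So did the ubiquitin receptor PSMD4 (-0.22), PSMD6 (-0.20), PSMD13 (-0.18) and PSMD3 (-0.13). PSMD8 did not pass (log2 -0.03, SE 0.035, edgeR adjusted p = 0.58).

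PSMD2, a large scaffold subunit of the base, went the other way. It had 634, 648, 642 and 627 CPM in the control libraries and 728, 685, 732 and 733 CPM in the knockdown libraries. Every knockdown library was above every control, with replicate 2 lower than the other knockdown libraries (log2 0.17, SE 0.031, edgeR adjusted p = 2.35e-05). It was also the most abundant proteasome transcript by CPM, at 638 ± 9.14 CPM in control, and per kilobase of messenger RNA (185 CPM per kilobase) it was second only to PSME3 (188 CPM per kilobase), or highest if the length of all annotated exons is used. Summed over all 46 tested genes, the level went from 4981 ± 52.1 to 4538 ± 108 CPM, 91.1% of control, and over the 17 subunits of the 19S cap, PSMD2 included, from 2351 ± 21.03 to 2229 ± 49.0 CPM.

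The remaining activators and the inhibitor did not share 1 direction. PSME3, the nuclear PA28 gamma activator, fell, with 186, 189.8, 190.0 and 183 CPM in the control libraries and 151, 155, 168 and 163 CPM in the knockdown libraries (log2 -0.23, SE 0.034, edgeR adjusted p = 1.42e-06). PSME4, the nuclear activator PA200, rose, with 89.7, 88.2, 85.6 and 91.6 CPM in the control libraries and 96.2, 97.8, 104 and 99.3 CPM in the knockdown libraries (log2 0.16, SE 0.035, edgeR adjusted p = 0.000346). Its lowest knockdown library was above its highest control. PSMF1, the proteasome inhibitor PI31, had a log2 change of -0.07 and did not pass (SE 0.037, edgeR adjusted p = 0.0999).

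Assembly chaperones of the core mostly fell. Of the 4 PSMG genes, which help build the alpha ring, 3 fell (75%, against 25.9% of all genes tested). PSMG4, the least abundant tested proteasome gene by CPM, had 16.2, 16.7, 16.3 and 15.4 CPM in the control libraries and 12.3, 10.7, 13.4 and 12.6 CPM in the knockdown libraries (log2 -0.40, SE 0.069, edgeR adjusted p = 1.61e-05). PSMG3 (-0.25) and PSMG2 (-0.16) fell, while PSMG1 had 36.0, 37.7, 36.7 and 39.7 CPM in the control libraries and 32.8, 33.9, 38.1 and 34.9 CPM in the knockdown libraries and did not pass (log2 -0.10, SE 0.049, edgeR adjusted p = 0.0774). Of the 3 chaperones of the ATPase ring, PSMD5 fell, with 70.5, 73.7, 72.3 and 72.0 CPM in the control libraries and 58.1, 60.7, 63.8 and 65.0 CPM in the knockdown libraries (log2 -0.22, SE 0.039, edgeR adjusted p = 2.1e-05), and PSMD10 fell by a smaller amount (log2 -0.12). The PSMD10 call was lost without knockdown replicate 2 (edgeR adjusted p = 0.0797), without control replicate 2 (0.0509) and without control replicate 4 (0.0634). PSMD9 had 30.9, 31.4, 33.1 and 31.5 CPM in the control libraries and 33.8, 34.6, 32.7 and 35.0 CPM in the knockdown libraries, and its groups overlapped (log2 0.10, SE 0.046, edgeR adjusted p = 0.0561).

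Genes that work with the proteasome under other names moved in both directions. Of 19 listed partners, 6 fell and 6 rose, 7 not passing the test. That is 31.6% in each direction against 25.9% and 25.2% of all genes tested, and the median log2 change was -0.02. Without control replicate 2, or with no filter on low counts, 3 partners were higher in place of 6. The falling genes with the lowest adjusted p belong to the particle or its assembly. UCHL5, a deubiquitinase bound to the cap, was among them (60.8 ± 1.92 to 39.8 ± 2.70 CPM; log2 -0.61, SE 0.045, edgeR adjusted p = 3e-12), as was SEM1, a small lid subunit (49.0 ± 3.23 to 39.6 ± 2.47 CPM), and POMP, the maturation chaperone of the core, had 97.7, 108, 105 and 112 CPM in the control libraries and 70.5, 74.7, 81.6 and 84.9 CPM in the knockdown libraries (log2 -0.44, SE 0.059, edgeR adjusted p = 4.53e-05). UBQLN1 (0.11), a shuttle that carries ubiquitinated proteins, and the ubiquitin ligase gene UBE3A (0.11) rose. So did ADRM1, itself a part of the cap (log2 0.10, SE 0.035, edgeR adjusted p = 0.0211). Among 6 genes of ubiquitin supply, UBB fell (-0.22) and 4 did not pass, so that 33.3% were called against 51.1% of all genes tested. In this list 2 were lower without knockdown replicate 3, and 2 were higher without knockdown replicate 1.

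The transcription factor NRF1, gene NFE2L1, raises proteasome genes when proteasome activity is short. NFE2L1 itself was slightly higher in knockdown cells (389 ± 2.98 to 415 ± 6.12 CPM; log2 0.09, SE 0.029, edgeR adjusted p = 0.00705). Of 11 genes of this axis, 4 fell, 2 rose and 5 did not pass, that is 36.4% lower and 18.2% higher against 25.9% and 25.2% of all genes tested. NFE2L2, the related antioxidant factor NRF2, fell (149 ± 6.64 to 113 ± 3.94 CPM; log2 -0.41, SE 0.036, edgeR adjusted p = 1.36e-10), as did NGLY1 (-0.19), the glycanase that activates NRF1, and MAFF (-0.17), a small MAF partner. SEL1L (0.19), of the ER degradation complex, rose.

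Genes of interferon and NF-kB control were mixed, and those of MHC class I peptide loading fell. Of 19 control genes, 8 fell (42.1%, against 25.9% of all genes tested), 5 rose (26.3%, against 25.2%) and 6 did not pass. Without knockdown replicate 3, 3 were higher in place of 5. IFNGR1 (-0.41), an interferon-gamma receptor chain, and NFKB1 (-0.31), an NF-kB subunit, fell. TYK2 (0.22), a receptor kinase, and SOCS1 (0.45) and SOCS3 (0.19), feedback inhibitors of cytokine signalling, rose. Of 16 peptide-loading and class I genes, 13 fell (81.2%, against 25.9%) and 3 missed the threshold, and the median log2 change was -0.27. HLA-B (-0.996) and HLA-C (-0.71), class I heavy chains, were among those that fell. TAP1, the neighbour of PSMB9 and named here for its position, had 163, 162, 168 and 163 CPM in the control libraries and 146, 128, 139 and 129 CPM in the knockdown libraries (log2 -0.28, SE 0.037, edgeR adjusted p = 3.71e-07), a smaller fall than the -0.91 of PSMB9; the difference between them was not tested.

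**Figure D5:**
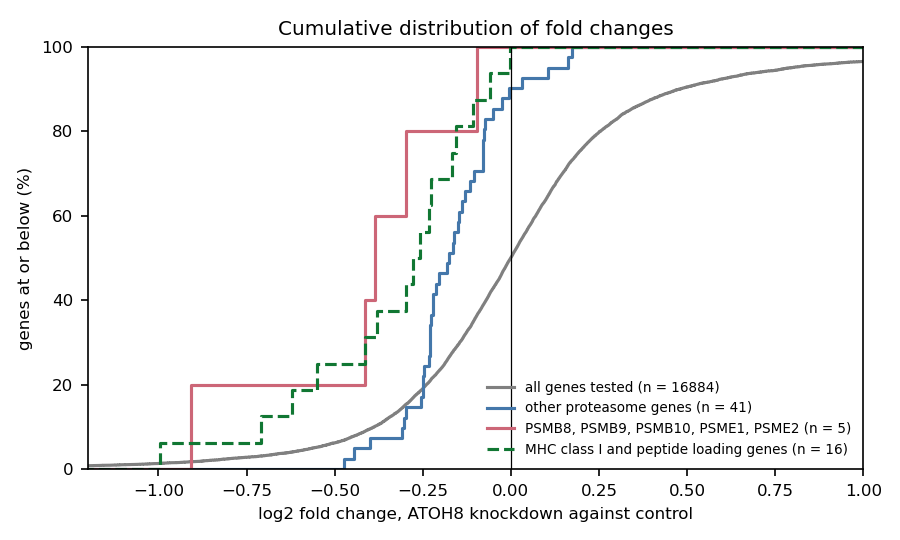
Cumulative share of genes, in percent, at or below each log2 fold change (ATOH8 knockdown against control), for all 16884 genes tested, the 41 other proteasome genes, the 5 interferon-inducible ones and the 16 class I and peptide-loading genes. Most of each list lies left of the grey line for all genes; only below about -0.25 are the other proteasome genes to its right.

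Markers of leukocytes, endothelial cells and podocytes were mixed in level and in direction. Leukocytes carry immunoproteasomes without interferon. Of 15 leukocyte markers, 9 had at most 3 counts in any library, among them PTPRC (CD45) and CD3E, and MS4A1, FCGR3A and NKG7 had 0 counts throughout. The summed level of the list was 78.7 to 89.0 CPM in control and 104 to 115 CPM in knockdown libraries, most of it from CD68, a lysosomal gene, which rose (0.42). Of the 5 leukocyte markers tested, 2 rose, CD68 and ITGAM (2.56, with a mean of 1.14 CPM in knockdown libraries), and 1 fell, CD34 (-0.70). For this and the next 2 marker lists, the shares among all genes tested were 25.2% higher and 25.9% lower. The 9 endothelial markers summed to 11.3 to 12.8 CPM in control and 17.5 to 20.6 CPM in knockdown libraries, with 3 of 5 tested ones, TIE1 (2.68), TEK (1.48) and VWF (1.01), rising and EMCN at 0 counts. The 12 podocyte markers summed to 902 to 934 CPM in control and 727 to 772 CPM in knockdown libraries. Of the 8 podocyte markers tested, 4 fell and 2 rose: KIRREL1 (-0.36), PLA2R1 (-0.65) and CD2AP (-0.26) were among the falls, and SYNPO (0.53) and NES (1.01) rose. Their part in the changes of the proteasome genes was not tested.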

How the data were processed

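Polyadenylated RNA of AB8/13 cells was sequenced in 4 control and 4 ATOH8 knockdown libraries made with a strand-keeping kit, per the labels' protocols. The authors deposited whole-number counts per gene, with versioned Ensembl identifiers, and these counts were used as deposited. The submitters' processing notes name the build hg19 and the tools FastQC, STAR, featureCounts and DESeq2, with versions, strand setting and the handling of multi-mapping reads not given in the sources used here. Reads shared by paralogs, pseudogenes or overlapping genes can therefore have been split or lost in an unknown way.

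Of 60609 rows, 1 with a missing cell and 44 pseudoautosomal copies at 0 counts were left out. Symbols came from a gene name table and otherwise from GENCODE release 29 (GRCh38), which also gave gene types, lengths and exon overlap; hg19 annotation was not used here. Genes were filtered with filterByExpr (minimum count 10), scaled by TMM and tested with edgeR 4.0.16 (robust quasi-likelihood F test, limma 3.58.1, R 4.3.3) on group alone, with Benjamini-Hochberg adjustment over the 16884 genes tested and a threshold of 0.05. CPM are counts per 1000000 of the TMM-scaled library size. Totals of 21108695 to 27109043 counts and a common biological coefficient of variation of 3.75% set the precision. On simulated counts with 16658 genes tested, the fit recovered 98 of 100 genes with a 2-fold change and 74 of 100 with a 1.3-fold change. Of its 183 calls, 6.01% were false. Only those genes were changed there, and the spread of each gene was set by its abundance alone. In the real data 51.1% of genes were called, so these rates may not carry over. No 2 libraries of a group agreed within sampling noise (chi-square per gene 1.95 to 4.48 over 12 pairs). Ratios of gene pairs were tested with exact permutation tests over the 70 assignments of libraries.

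Values in each library are given for the 5 inducible genes, PSMB5, PSMB6 and PSMB7, and the genes with the highest and lowest log2 change of each role class with at least 3 tested genes. From each functional list up to 3 higher and 3 lower genes with the smallest adjusted p are named, and a few of these are not reported here. PSME3, PSME4, POMP and TAP1 were given per library, and ADRM1, PSMB8-AS1, PSMC1P1 and the markers at or near 0 counts were named, outside this rule. The genes and lists were chosen with earlier results of these data known. Alternatives were DESeq2 1.42.0 (size factors and Wald test), other filters, a replicate block, the omission of each library and, added after results were seen, scaling to the other proteasome genes.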

Additional observations from a re-analysis of the deposited data

Results flagged for a closer look

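The 4 libraries of each group were checked for a single value far from the others in each of 46 tested proteasome genes, with Dixon's test at the 95% critical value. Of 92 such groups, 6 had one, and chance gives about 1 in 20. The knockdown value of PSMD2 in replicate 2 was 685 CPM, below the 727.7 to 733.3 CPM of the other knockdown libraries and still above every control. PSMD11 had 100.5 CPM in knockdown replicate 4, above 94.14 to 94.66 CPM in the others. The control value of PSMC5 was 126.3 CPM in replicate 1, below 135.1 to 136.3 CPM, and that of PSMD3 in the same library was 133.3 CPM, above 123.8 to 124.6 CPM. PSMA1 had 97.96 CPM in control replicate 3, below 103.9 to 104.8 CPM, and PSMD1 had 186.2 CPM in control replicate 4, above 182.7 to 183.2 CPM. These 6 values lay in 5 different libraries.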

How the results depend on the processing

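Of 36 proteasome genes called, 33 were called in the same direction in all 13 alternative analyses. PSMA4, PSMD10 and PSME2 lost the call in at least 1, and 5 of the 10 genes not called (PSMC1, PSMC4, PSMD9, PSMF1 and PSMG1) gained one in at least 1. The number of genes called lower stayed between 32 and 35 over these alternatives. With small changes, the sign turned for PSMD8 without knockdown replicate 2 (log2 0.000411; -0.0497 to 0.000411 over the omission of each library) and for PSMC3 with the filter of 1 CPM (0.00137), without knockdown replicate 4 (0.0140) and without control replicate 4 (0.00767; -0.0222 to 0.0140 over the omissions). The cause was not tested. Scaled to the other proteasome genes, PSME2 turned to 0.0657, and 7722 genes were higher and 1853 lower, against 4253 and 4372. Whether the shared replicate numbers pair the libraries was not settled. Correlations of same-numbered deviations were 0.210, 0.201, 0.0855 and 0.110, all positive, against -0.217 to 0.124 for different numbers. Not every library correlated best with its own number, and the 0.124 was that of control replicate 4 with knockdown replicate 3. The main tests used no pairing. With the number as a block, 35 proteasome genes were lower and 2 higher. In the block, the log2 ratio changes were -0.45 (PSMB8 to PSMB5), -0.76 (PSMB9 to PSMB6) and -0.25 (PSMB10 to PSMB7), each with an exact sign-flip p = 0.125, the smallest possible. Leaving out 1 library gave -0.47 to -0.42, -0.79 to -0.73 and -0.28 to -0.21, each with exact permutation p = 0.0571, the smallest possible, so neither p bears on stability. PSMA8 and PSMB11 had too few counts to test.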
